A study of Mus musculus with 7 samples.

Results

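The insulin-like growth factor genes Igf1 and Igf2 and the binding protein gene Igfbp6 were followed across soleus muscle samples. They are 3 of the 203 named genes on the array, taken by their symbol in the platform annotation. They are measured by 4 of the 223 spots, since Igf1 has 2 spots, named 16I and 22H, while Igf2 is spot 16J and Igfbp6 is spot 16H. The samples are 7 soleus muscles of wild-type 129/SV mice kept as cage controls, 1 array each, and no sample received another treatment or carries another genotype, so the study holds 1 group and no contrast. The labels give neither age nor sex. Replicate 5 has C16 in its title where the other 6 have C15, codes that the labels do not explain. The labels do not say whether the muscles are from different animals. The p-values below come from permuting the pairing of values over these 7 samples, which takes the samples as independent of one another. The labels do not establish that, and replicates 2 and 6 shared 64 identical values and replicates 3 and 4 shared 42. The p-values therefore concern only these samples, whose differences may be partly technical.

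Insulin-like growth factors 1 and 2 are small secreted proteins related to insulin. Both act through the receptor encoded by Igf1r, and in muscle they promote growth and the differentiation of myoblasts. Igf1 is made in liver under growth hormone and also locally in muscle, whereas Igf2 is an imprinted gene known for its role in fetal growth. Binding proteins hold the 2 factors outside the cell, and the product of Igfbp6 binds insulin-like growth factor 2 in preference to insulin-like growth factor 1.

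In the mouse assembly GRCm38.p6, Igf1 lies on chromosome 10 (87858265 to 87937047), Igf2 on chromosome 7 (142650768 to 142666816) and Igfbp6 on chromosome 15 (102144186 to 102149512). The array does not say which part of a transcript its primers and probes cover, and the sequences of the probes are not used here. The stretches of 250 bases before a transcription start are shown because the signals of these genes are compared sample by sample below, and a reader may want the DNA in front of each. They come from RefSeq on GRCm38.p6, where Igf1 and Igfbp6 have 1 start each in the table used and Igf2 has 4. For Igf2 the most downstream of the 4 is shown, and the arrays do not tell which start was used. The window of Igf1 is chr10:87860861-87861110 on the plus strand, that of Igf2 chr7:142657497-142657746 on the minus strand and that of Igfbp6 chr15:102143936-102144185 on the plus strand. The windows of Igf1 and Igf2 lie inside the annotated span of their genes. Capitals mark matches, on either strand, to 4 motifs. These are the TATA box with the letters TATAAA, the CCAAT box, the GC box with the letters GGGCGG and the E-box with the letters CANNTG, where N is any base. In the windows shown no match overlapped another.
Igf1: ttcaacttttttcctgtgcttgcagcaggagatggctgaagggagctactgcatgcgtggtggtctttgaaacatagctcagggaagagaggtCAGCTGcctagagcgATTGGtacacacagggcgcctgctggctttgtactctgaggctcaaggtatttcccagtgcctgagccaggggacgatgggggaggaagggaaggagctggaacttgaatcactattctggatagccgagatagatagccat
Igf2: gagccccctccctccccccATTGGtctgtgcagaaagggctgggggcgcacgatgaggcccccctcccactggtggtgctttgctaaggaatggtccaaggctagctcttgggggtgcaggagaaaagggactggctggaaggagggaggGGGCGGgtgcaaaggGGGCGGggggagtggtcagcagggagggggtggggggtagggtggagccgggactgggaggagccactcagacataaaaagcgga
Igfbp6: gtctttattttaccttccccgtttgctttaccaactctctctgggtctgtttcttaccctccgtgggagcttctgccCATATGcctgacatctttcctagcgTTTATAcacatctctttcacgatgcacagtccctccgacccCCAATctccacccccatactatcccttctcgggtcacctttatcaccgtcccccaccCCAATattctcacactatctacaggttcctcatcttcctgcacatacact
The Igfbp6 window held 1 TATA box match, 2 CCAAT box matches and 1 E-box match. The Igf2 window held 1 CCAAT box and 2 GC box matches, and the Igf1 window 1 CCAAT box and 1 E-box match. Over 32851 promoter windows of the same length, 12.4% held the TATA box letters, 33.8% the CCAAT box, 32.7% the GC box and 66.2% the E-box. The CCAAT box was found in all 3 windows shown, but in 0 of the windows at the other 3 Igf2 starts. The share of G and C was 66% for Igf2, 52.8% for Igf1 and 49.6% for Igfbp6, against a median of 52.4% over all windows. At the other 3 Igf2 starts it was 50.8%, 47.6% and 68.8%, and the window with 68.8% also held 1 GC box match. The features given for Igf2 therefore depend on which start is shown, and not all are particular to it. These matches describe the letters of the windows only.

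The authors' normalization is not stated, and the scale of the values was inferred from their sums. Leaving out the 28S ribosomal RNA spot and the unnamed spot 1M, the deposited values of an array added up to 99.9% to 100%. Each value was therefore taken as the signal of a spot in percent of that sum. The floor of an array is its 10th percentile over the 223 spots; it ranged from 0.02% in replicate 5 to 0.13% in replicate 1. A gene was called above the floor where every one of its spots exceeded 2 times the floor on all 7 arrays. The files hold no counts, background readings or detection calls, so the number of arrays limits the precision. Replicates 7 and 1 stood apart from the others, with a mean r with the other samples of 0.940 and 0.942 over all genes, against 0.961 to 0.973 in the other 5. The slow muscle genes Myh7 and Mb and the 3 fast myosin genes on the array were above the floor in all samples. Of the markers of other cell types, 0 of 3 fibroblast and tendon genes, 1 of 5 endothelial genes (Cdh5), 1 of 2 adipocyte genes (Fabp4), 0 of 3 satellite cell genes and 0 of 2 immune genes were above it, and the nerve list had 0 genes on the array. Of all 203 genes, 44 (21.7%) were above it, and the marker lists are too short to be told apart from that share. In tissue RNA, fewer cells of a type and less RNA per cell cannot be told apart.

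Igf2 was above the floor in every sample and differed widely between samples. Its signal was 0.43% in replicate 1, 0.34% in replicate 2, 0.15% in replicate 3, 0.20% in replicate 4, 0.67% in replicate 5, 0.38% in replicate 6 and 1.11% in replicate 7. Replicates 7 and 5 were high, replicates 3 and 4 were low, and the other 3 lay close together between them. The mean was 0.469% ± 0.330 (SD, n = 7), and the highest value was 7.4 times the lowest. Without replicates 5 and 7 the highest value was 0.43%. Each sample was measured once on this spot, so neighbours in that order, such as replicates 2, 6 and 1, cannot be separated from error of a single spot.

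Set against the floor of its own array, Igf2 also had a wide range, over floors that themselves ran from 0.02% to 0.13%. The signal was 3 times the floor in replicate 3, 3.31 times in replicate 1, 5.67 times in replicate 2, 6.33 times in replicate 6, 6.67 times in replicate 4, 12.3 times in replicate 7 and 33.5 times in replicate 5. Replicates 5 and 7 were thus the 2 highest on both measures, but in exchanged order, since replicate 5 has the lowest floor of all arrays. Division by the floor also widened the range of another gene, Slc2a4. Its signal of 0.39% to 0.65% became 4.08 to 23.5 times the floor. On log2 values brought to the same distribution on every array by quantile normalization, the SD of Igf2 was 0.70, rank 5 of 203 genes and rank 2 of the 44 above the floor, where the median was 0.26. As deposited, its log2 SD of 0.98 ranked 22 of 203, where the median was 0.68 over all genes and 0.34 over those above the floor.

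Igfbp6 was also above the floor in every sample. Its signal was 0.57% in replicate 1, 0.49% in replicate 2, 0.36% in replicates 3 and 4, 0.66% in replicate 5, 0.80% in replicate 6 and 1.02% in replicate 7. Replicates 7 and 6 were high and replicates 3 and 4 low, with a mean of 0.609% ± 0.241 (SD, n = 7). The highest value was 2.83 times the lowest, a narrower range than that of Igf2. Over the floor the signal ran from 4.38 times in replicate 1 to 33 times in replicate 5, with a median of 11.3. The SD on the quantile-normalized log2 scale was 0.34, rank 52 of 203 and rank 16 of the 44 genes above the floor.

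Igf1 lay near the floor. Spot 16I gave 0.20% in replicate 1, 0.11% in replicate 2, 0.07% in replicate 3, 0.06% in replicate 4, 0.07% in replicate 5, 0.13% in replicate 6 and 0.21% in replicate 7. It exceeded 2 times the floor on 3 of 7 arrays, those of replicates 5, 6 and 7. Spot 22H gave 0.27% in replicate 1, 0.13% in replicate 2, 0.10% in replicates 3, 4 and 5, 0.14% in replicate 6 and 0.25% in replicate 7. It exceeded 2 times the floor on 6 of 7 arrays, and in replicate 3 it was exactly at that limit. In percent, replicates 1 and 7 were high and replicates 3, 4 and 5 low on both spots. Over the floor of its own array the order differed. Spot 16I was then highest in replicate 5 (3.5 times) and lowest in replicate 3 (1.4 times), with replicate 1 at 1.54 times. Spot 22H was likewise highest in replicate 5 (5 times) and lowest in replicate 3 (2 times), with replicate 1 at 2.08 times. A signal near the floor does not show that the transcript was absent.

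**Figure D1:**
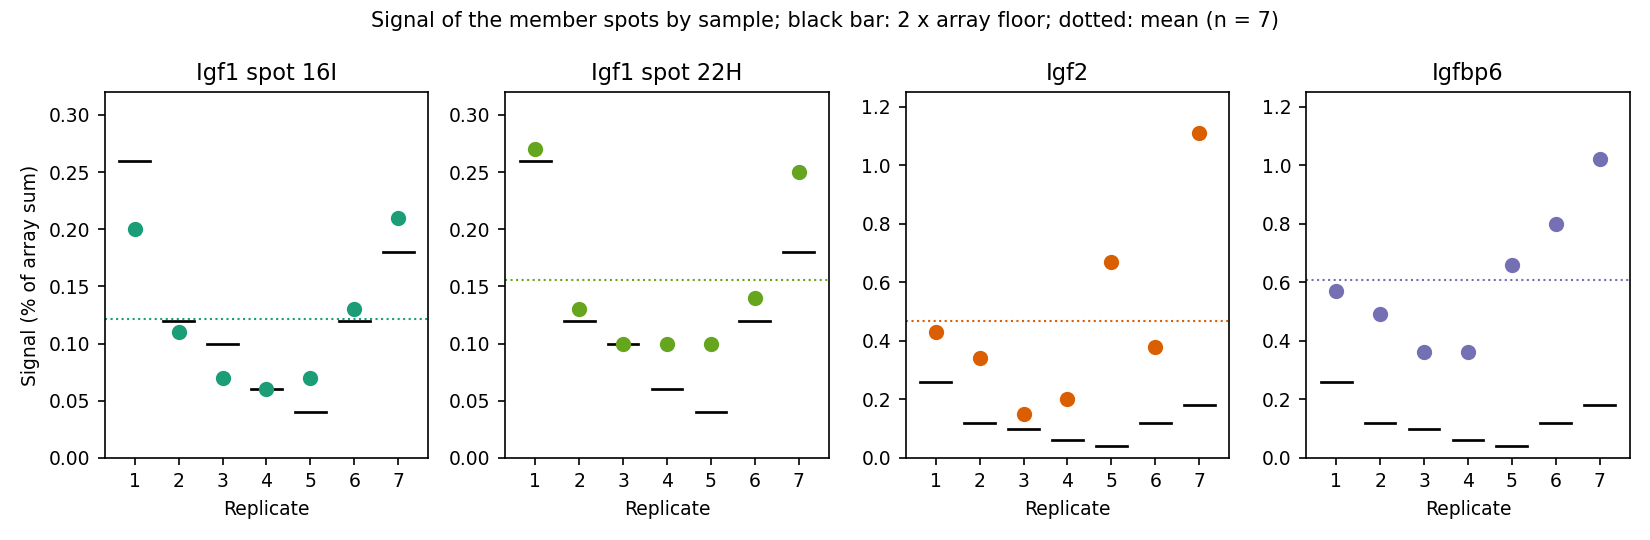
Signal of the 4 spots in each of the 7 samples, as a percent of the array's summed signal; points are samples, the black bar is 2 times the floor of that array and the dotted line the mean. Igf2 and Igfbp6 lie above the bar in all 7 samples, with Igf2 at 1.11% in replicate 7, while spot 16I of Igf1 lies above it in 3 and spot 22H in 6; the axis of the Igf1 panels is expanded.

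The 2 Igf1 spots ordered the samples alike in the deposited values and less so after normalization. Spot 22H was higher than spot 16I in 7 of 7 samples, by 1.08 times in replicate 6 to 1.67 times in replicate 4, with a mean log2 ratio of 0.40 ± 0.21 (SD, n = 7). In log2 deposited values Pearson's r between them was 0.966 (adjusted exact permutation p = 0.00952). That value ranked only 16 of 204 named spots by r with spot 16I, and the median over those spots was 0.856, so most spots followed the same course over the arrays. On the quantile-normalized scale r was 0.653 (two-sided exact permutation p = 0.116, adjusted p = 0.116; rho = 0.645, exact p = 0.131, adjusted p = 0.131), rank 22 of 204, where the median was -0.0723. With replicates 6 and 7, the most distant from the median of spot 16I, left out, r was 0.155. It was 0.362 without replicate 7 (adjusted exact p = 0.5) and 0.863 without replicate 1, where it passed (adjusted exact p = 0.0167). Adjusted values in this and the next paragraphs are over the 4 relations computed between members.

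**Figure D2:**
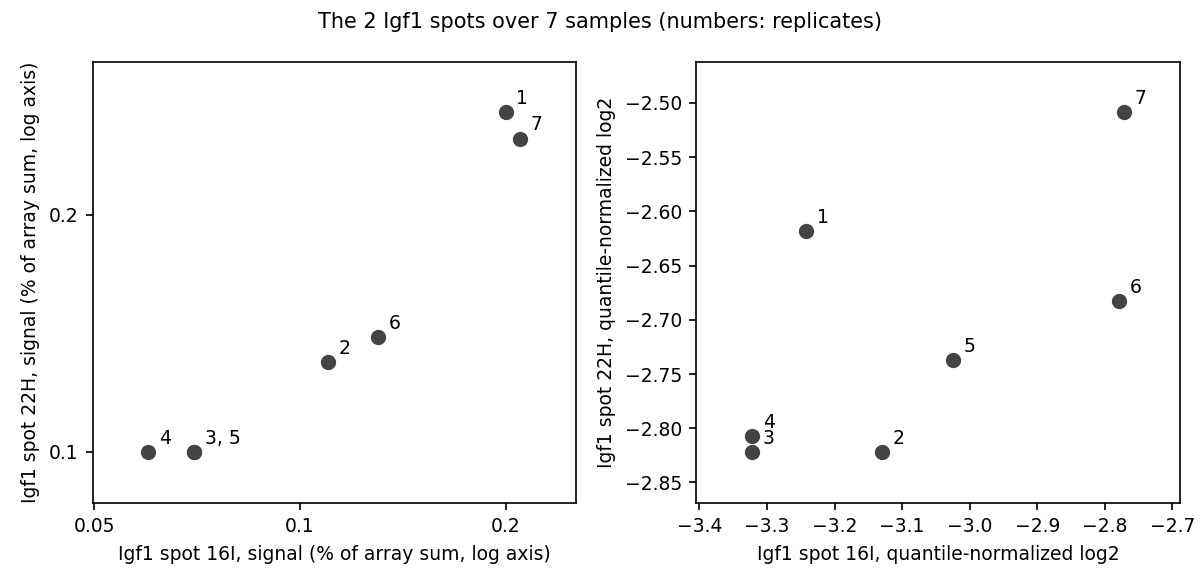
The 2 Igf1 spots set against each other, each point 1 sample with its replicate number; left, percent of array signal on log axes, right, quantile-normalized log2 values. On the left replicates 1 and 7 stand at the upper end and the points lie near a line (r = 0.966), and on the right replicate 1 moves off that line and r is 0.653.

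Both Igf1 spots followed the floor of the array more closely than Igf2 and Igfbp6 did. Their r with the floor in log2 deposited values was 0.881 for spot 16I and 0.874 for spot 22H (exact permutation p = 0.00873 and 0.0143, adjusted p = 0.0571 for each over 8 relations). The rank correlations with the floor, 0.891 and 0.954, passed (adjusted exact p = 0.0365 and 0.0190). For Igfbp6 r with the floor was 0.321 and for Igf2 0.206 (exact permutation p = 0.482 and 0.659, adjusted p = 0.551 and 0.659; rho = 0.4 and 0.342, exact p = 0.369 and 0.459, adjusted p = 0.422 and 0.459). Without replicates 1 and 5, the arrays with the highest and the lowest floor, r was 0.929, 0.861, 0.829 and 0.810 for spot 16I, spot 22H, Igfbp6 and Igf2. The difference between the genes in how they follow the floor therefore rests on those 2 arrays, and it was not itself tested.

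Igf2 and Igfbp6 were high and low in largely the same samples. Both were lowest in replicates 3 and 4, the most alike pair of samples over all spots (r = 0.991 in log2 deposited values, with 42 identical values), and highest in replicate 7, and replicate 6 was higher for Igfbp6 than its place for Igf2. On the quantile-normalized scale Pearson's r was 0.725 and missed the threshold (exact permutation p = 0.0675, adjusted p = 0.0899; rho = 0.757, exact p = 0.0571, adjusted p = 0.0762). With replicates 5 and 7, the most distant from the median of Igf2, left out, it was 0.856. It was 0.595 without replicate 7 (adjusted exact p = 0.280) and 0.759 without replicate 1 (adjusted exact p = 0.0889). Without replicate 6 it was 0.871 and passed (adjusted exact p = 0.0407). Without replicate 3 it was 0.649 and without replicate 4 0.669 (adjusted exact p = 0.207 and 0.189). Those 2 alike samples both stayed in when replicates 5 and 7 were left out, and r without both of them was not computed. The r in log2 deposited values was 0.905 and passed (adjusted exact permutation p = 0.0151), and with this one it passed in 6 of 6 alternative ways of scaling, with r from 0.751 to 0.910. If the deposited values are shares of the array sum, as inferred, both genes are divided by the same sum, and over the floor by the same floor, so part of r on those scales is shared by construction. Of 202 genes, 14 (6.93%) had an r with Igf2 at or above that of Igfbp6 on the quantile-normalized scale.

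**Figure D3:**
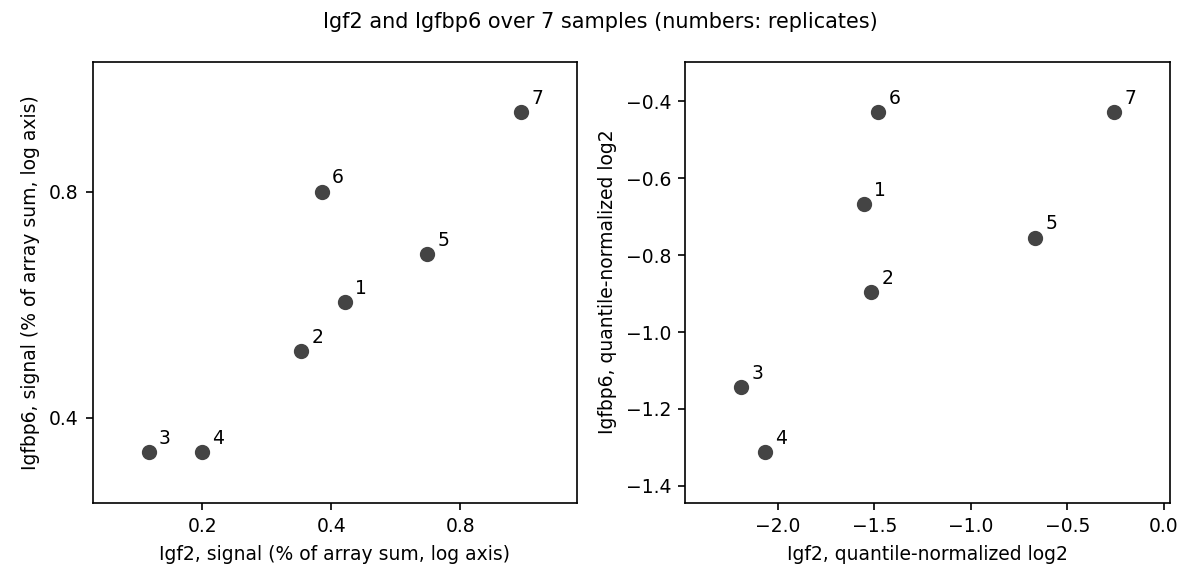
Igf2 against Igfbp6, each point 1 sample with its replicate number; left, percent of array signal on log axes, right, quantile-normalized log2 values. Replicates 3 and 4 lie at the lower left and replicate 7 at the upper right on both sides, with r = 0.905 on the left and 0.725 on the right.

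The samples in which Igf2 and Igfbp6 were low also had the lowest 28S signal. The 28S spot stood at 3.88% and 5.35% in replicates 3 and 4, and between 12.55% and 21.6% in the other 5. The r with 28S in log2 deposited values was 0.711 for Igf2 (exact permutation p = 0.0704, adjusted p = 0.188; rho = 0.536, exact p = 0.236, adjusted p = 0.377) and 0.668 for Igfbp6 (exact permutation p = 0.101, adjusted p = 0.202; rho = 0.631, exact p = 0.144, adjusted p = 0.377). Without replicates 3 and 4 these were -0.342 and -0.467, so the relation rests on those samples. Without replicate 2 alone they were 0.890 and 0.906, and both passed (adjusted exact p = 0.0222 for each). For the Igf1 spots r with 28S was 0.599 and 0.474 (adjusted exact p = 0.262 and 0.341; rho = 0.559 and 0.445, adjusted exact p = 0.377 and 0.419). The part of the 28S signal in the course of Igf2 and Igfbp6 was not tested.

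The slow muscle genes Myh7 and Mb summed to 15% in replicate 1, 17.7% in replicate 2, 19.8% in replicate 3, 18.8% in replicate 4, 17.4% in replicate 5, 16.9% in replicate 6 and 13.5% in replicate 7. Myh7 alone was highest in replicates 3 and 4 (12.64% and 10.6%), whereas Mb was highest in replicate 2 (9.79%) and at 7.14% in replicate 3. The 3 fast myosin genes summed to 7.49% in replicate 4 and 6.57% in replicate 3, their highest, and to 4.42% in replicate 2, their lowest. The slow muscle sum was thus highest in replicates 3 and 4, where Igf2 and Igfbp6 were lowest. It was lowest in replicate 7, where both were highest. Among the marker sums of other cell types, the endothelial one was also lowest in replicates 3 and 4, though its order over the samples differed from that of Igf2. The 5 endothelial markers summed to 0.45% and 0.47% in replicates 3 and 4, 0.54% in replicate 5, 1.01% in replicate 7 and 1.06% in replicate 1. The 3 fibroblast and tendon markers on the array, Pdgfra, Fn1 and Tnc, summed to 0.74% in replicate 7 and to 0.175%, their lowest, in replicate 5, where Igf2 was second highest. Replicate 5 also had the lowest floor, 0.02%. In replicate 7, with a floor of 0.09%, Tnc alone was at 0.45%. All these are shares of 1 sum, and of the endothelial and fibroblast markers only Cdh5 was above the floor on all arrays. Their part in the result was not tested.

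Igf1, taken as the mean of its 2 spots on the quantile-normalized log2 scale, varied with Igfbp6 with r = 0.928, the only one of the 4 member relations to pass by Pearson's r (exact permutation p = 0.00556, adjusted p = 0.0222; rho = 0.919, exact p = 0.00714, adjusted p = 0.0143). With replicates 6 and 7, the most distant from the median of Igf1, left out, it was 0.914. The call was lost without replicate 2 (r = 0.927, adjusted exact p = 0.0889) and without replicate 3 (r = 0.913, adjusted exact p = 0.0556), and it held in the other 5 of 7 cases of leaving out 1 replicate. It was also lost in log2 deposited values (r = 0.665, adjusted exact p = 0.144) and with arrays centred on their medians (r = 0.738, adjusted exact p = 0.0706). Igf1 and Igf2 gave r = 0.810 (exact permutation p = 0.0292, adjusted p = 0.0583). Their rank correlation was 0.929 and passed (exact permutation p = 0.00675, adjusted p = 0.0143). Without replicates 6 and 7 r was 0.941. Without replicate 5 and without replicate 6 r was 0.886 and 0.947, and both passed (adjusted exact p = 0.0111 and 0.0167). In log2 deposited values r was 0.621 (adjusted exact p = 0.144). Both this r and the 0.665 of Igf1 with Igfbp6 lay below the median of 0.871 over the 202 genes ranked by r with Igf1. The SD of Igf1 on the quantile-normalized scale was 0.16, rank 163 of 203, so these relations describe small differences between samples.

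**Figure D4:**
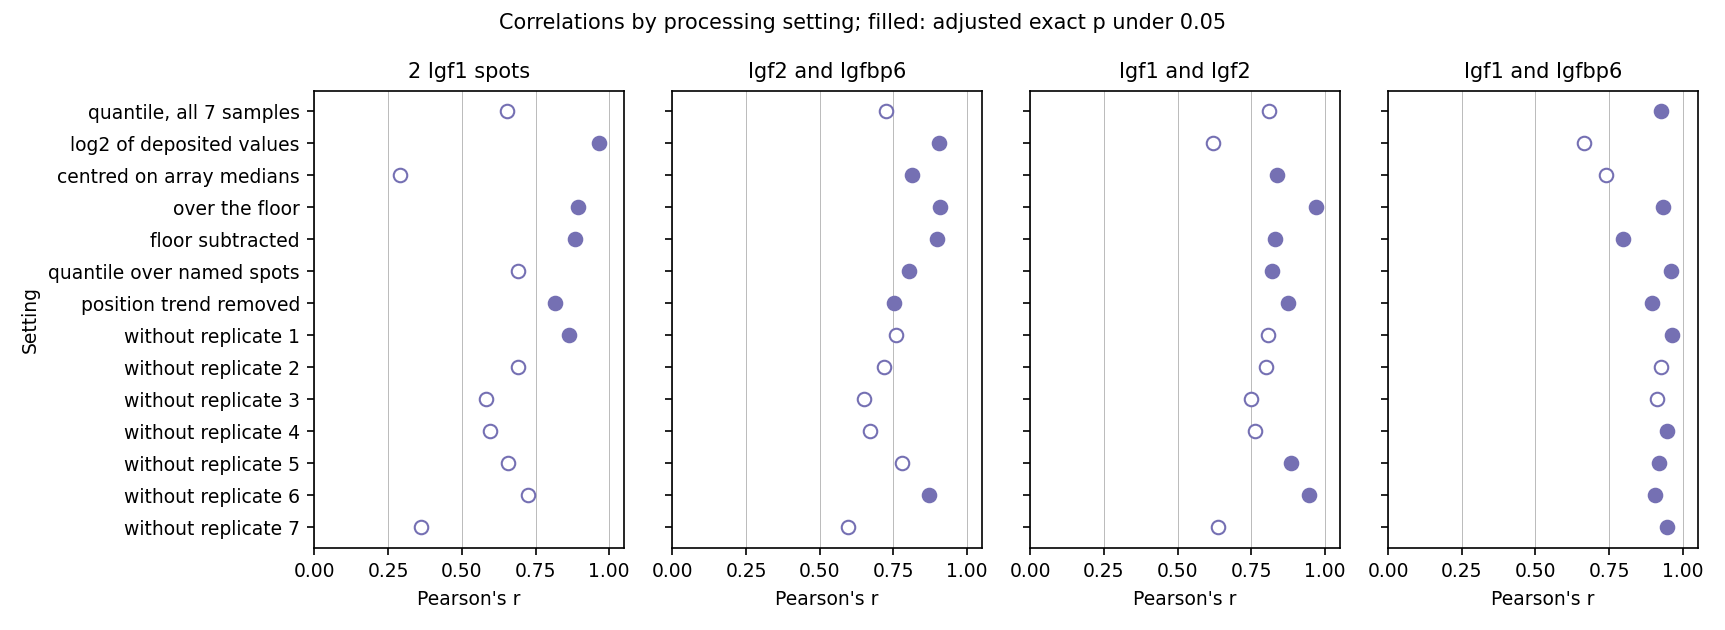
Pearson's r of the 4 member relations under each way of scaling and with each replicate left out; filled points have an adjusted exact p under 0.05. The relation of Igf2 and Igfbp6 lies between 0.595 and 0.910 in all settings, and that of the 2 Igf1 spots runs from 0.290 to 0.966.

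The spots of Igfbp6, Igf1 and Igf2 are named 16H, 16I and 16J and so carry successive letters, while the other Igf1 spot, 22H, lies apart. The spots next to Igf2 and Igfbp6 had lower signals in every sample. In replicate 7, where Igf2 stood at 1.11%, its 4 neighbours that are no members lay between 0.14% and 0.22%, and the Igf1 spot between the 2 bright spots was at 0.21%. In replicate 5, where Igf2 stood at 0.67%, those neighbours lay between 0.04% and 0.13%. The 7 neighbours of Igfbp6 reached at most 0.27%, in replicate 1, below the lowest Igfbp6 value of 0.36%. Of these neighbours, Hgf and Rb1 followed the same course at their lower level, and the others did not. On the quantile-normalized scale r was 0.797 between Igf2 and its neighbour Hgf and 0.865 between Igfbp6 and its neighbour Rb1, both above the 0.725 of Igf2 with Igfbp6. The other neighbours of Igfbp6 that are no members had r with it from -0.723 (Igfbp5) to -0.0652 (unnamed spot 15G). Those of Igf2 had r with it from -0.460 (Tfrc) to 0.0593 (Egfr). Among the neighbours of Igf1 spot 22H, Mef2c was brighter than it in all samples, at 0.39% to 0.76%, with r = 0.0275. The part of position in these relations was not tested beyond the trend that follows. With a quadratic trend in spot position removed, r was 0.751 for Igf2 and Igfbp6 and 0.817 for the 2 Igf1 spots, and both passed (adjusted exact p = 0.0464 and 0.0148).

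Of 42 genes of the insulin-like growth factor and insulin pathway, 12 were on the array, and 3 of these lay above the floor, Igf2, Igfbp6 and Slc2a4, against 44 of all 203 genes (21.7%). The median SD of the 12 on the quantile-normalized log2 scale was 0.26, against 0.25 over all genes. Among the receptors, Igf1r, which carries the growth signal of both factors, was at 0.03% to 0.22% and exceeded 2 times the floor on 0 of 7 arrays. The insulin receptor gene Insr, at 0.04% to 0.23%, also exceeded it on 0 arrays. Igf2r, whose product takes up insulin-like growth factor 2 for breakdown, was at 0.12% to 0.23% and exceeded it on 5 arrays.

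Among the binding proteins, Igfbp6 was the only one of 6 above the floor on all arrays, against 44 of all 203 genes (21.7%). Igfbp5, which is abundant in differentiating muscle cells, was at 0.12% to 0.27% and exceeded 2 times the floor on 6 of 7 arrays, missing it in replicate 7. Igfbp4 was at 0.07% to 0.19% and exceeded it on 2 arrays. Igfbp2, at 0.04% to 0.18%, exceeded it on 1, and Igfbp1 and Igfbp3, at 0.04% to 0.17% and 0.04% to 0.14%, on 0. Slc2a4, the insulin-responsive glucose transporter, stood at 0.39% to 0.65%, with a mean of 0.516% ± 0.0909 (SD, n = 7). Its lowest values were in replicates 4 and 3, at 0.39% and 0.43%, and its highest in replicate 6. A spot's signal also reflects its own primer and probe, so the level of 1 gene cannot be set against that of another.

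**Figure D5:**
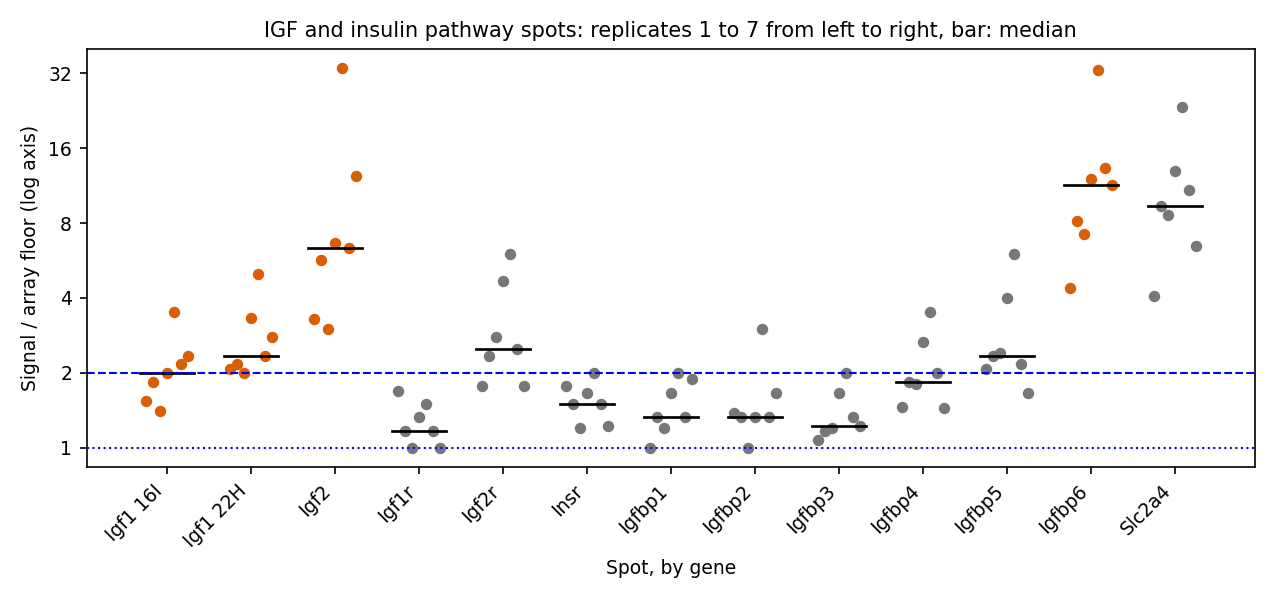
Signal over the floor of its own array (log axis) for the 13 spots of the 12 pathway genes; each point is 1 sample, replicates 1 to 7 from left to right, the bar is the median, the dashed line marks 2 times the floor and the dotted line the floor. Igf2, Igfbp6 and Slc2a4 lie above the dashed line in all samples, with medians of 6.33, 11.3 and 9.33.

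The genes whose course over the 7 samples was most like that of Igf2 on the quantile-normalized scale were Il6st, Ang2, Ang, Igfbp2 and Csf2rb2, with r from 0.901 to 0.965. Only Il6st, which encodes the signalling chain of the interleukin 6 receptor, lay above the floor on all arrays. Its signal was 0.71% in replicate 1, 0.52% in replicate 2, 0.21% in replicate 3, 0.26% in replicate 4, 1.15% in replicate 5, 0.74% in replicate 6 and 1.89% in replicate 7. As for Igf2, replicates 7 and 5 were highest and replicates 3 and 4 lowest, and r in log2 deposited values was 0.992. The least alike were Slc2a2 (r = -0.897) and Myf6 (r = -0.881), a muscle transcription factor; in deposited values r was 0.209 and -0.154.

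For Igfbp6 the most alike were Csf2rb2, Igf1, Ccna1, Ttn and Il6ra, with r from 0.879 to 0.939. Of these, Ttn, which encodes the giant sarcomere protein titin, lay above the floor, with 1.86% in replicate 2 as its lowest, a median of 2.42% and 3.3% in replicate 6 as its highest signal. The least alike were Fn1 (r = -0.907) and Fgfr2 (r = -0.886), at 0.240 and -0.618 in deposited values. Fn1 is the mean of 2 spots whose own r was 0.0852 on the quantile-normalized scale. For Igf1 the most alike were Ttn, Igfbp6, Csf2rb2, Ang2 and Srf, with r from 0.883 to 0.942, and the least alike were Adam2 (r = -0.987) and Myf6 (r = -0.933). In log2 deposited values r of Igf1 with Ttn was -0.117 and with Adam2 0.829, so that both changed sign between the scales, as did Myf6 (0.538). These correlations were ranked over 202 genes in 7 samples that share their arrays, and are given as a description.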

How the data were processed

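Per the labels' protocols, RNA of soleus cryosections was copied into radioactive cDNA from gene-specific primers, so each array has 1 colour. The authors deposited 1 linear ratio per spot and sample. No source used here states how images were read or background was treated. Of 223 spots, 205 had 1 gene symbol in the platform annotation (0 had several), 18 had none, and 204 of the 205 matched the RefSeq table of GRCm38.p6 by Entrez identifier, with all 4 member spots among them. For spreads and correlations, Igf1 and Fn1, with 2 spots each, were averaged on the log2 scale. In the marker sums the 2 Fn1 spots were averaged as percent values.

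Levels are the deposited ratios as percent. Spreads and correlations are on the log2 scale after quantile normalization over all spots, with no pseudocount. Correlations were tested with two-sided exact permutation over the 5040 pairings of 7 samples and adjusted by Benjamini-Hochberg, over 4 relations between members and over 8 with the floor and 28S. Named genes are the members, the 5 most and 2 least correlated genes of each, and every pathway gene on the array. The members and lists were chosen with earlier results of these data known. Replicates 2 and 6 shared 64 identical values and replicates 3 and 4 shared 42; all 7 samples were kept. Scripts ran in Python 3.11.15 with NumPy 2.4.6 and were tested on simulated data.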

Additional observations from a re-analysis of the deposited data

Results flagged for a closer look

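Of 26 values examined, 3 had 1 sample far from the other 6, where about 1 in 20 would by chance; all 3 were genes near the floor. In quantile-normalized log2 values, the distance of that sample to its neighbour divided by the range of all 7 was 0.807 for Igf1r and 0.655 for Insr, both high in replicate 1, and 0.617 for Igfbp5, low in replicate 7. In deposited values, Igf1r was at 0.22% against 0.03% to 0.09% in the others and Insr at 0.23% against 0.04% to 0.11%. Igfbp5, at 0.15%, lay inside the range of the others, 0.12% to 0.27%. Replicate 1 also had the highest floor, 0.13%, and the part of the floor in these values was not tested. The spots of Igf2, Igfbp6 and Igf1 had no such sample.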

How the results depend on the processing

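With 7 arrays, 1 spot per gene except Igf1 and no background readings, single values near the floor have 1 or 2 significant digits, and no error of a single spot can be given. No paired analysis was possible because the study holds 1 group. All member correlations kept their sign in every setting run. In log2 deposited values r was 0.966 for the 2 Igf1 spots and 0.905 for Igf2 and Igfbp6, both now past the threshold, while Igf1 and Igfbp6 fell short at 0.665. Centred on array medians, Igf2 with Igfbp6 (0.813) and with Igf1 (0.837) passed and Igf1 with Igfbp6 (0.738) did not. Over the floor, the Igf1 spots (0.894), Igf2 with Igfbp6 (0.910) and with Igf1 (0.969) passed, as they did with the floor subtracted (0.883, 0.899 and 0.831) and with the position trend removed (0.817, 0.751 and 0.876). With only named spots in the quantile step, Igf2 passed with Igfbp6 (0.801) and Igf1 (0.820). Igf1 with Igfbp6 passed over the floor (0.933), with the floor subtracted (0.796), with the position trend removed (0.895) and with only named spots (0.960). The Igf1 spots did not pass with arrays centred on medians (0.290, adjusted exact permutation p = 0.496) or with only named spots (0.689). The cause of these changes was not tested.

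The SDs were larger in log2 deposited values (Igf2 0.98, Igfbp6 0.57, Igf1 0.67), over the floor (1.19, 0.90 and 0.44) and with the floor subtracted (1.12, 0.60 and 0.66). With arrays centred on medians they were larger for Igf2 (0.89) and Igfbp6 (0.61) and smaller for Igf1 (0.14). They were also larger with the position trend removed (0.74, 0.38 and 0.20) and with only named spots (0.75, 0.37 and 0.17). With 1 replicate left out, r ran from 0.362 to 0.863 for the Igf1 spots, 0.595 to 0.871 for Igf2 and Igfbp6, 0.638 to 0.947 for Igf1 and Igf2 and 0.907 to 0.962 for Igf1 and Igfbp6. The SDs ran from 0.53 to 0.82 for Igf2, 0.27 to 0.38 for Igfbp6 and 0.13 to 0.19 for Igf1. Of the 3 members 2 stayed above the floor, and 3 or 4 pathway genes.

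Leaving out replicates for the floor and 28S was chosen after seeing the data. With the floor, r ran from 0.119 to 0.608 for Igfbp6, 0.832 to 0.933 for spot 16I, 0.791 to 0.922 for spot 22H and -0.0640 (without replicate 7, the sign turned) to 0.670 for Igf2. Spots 16I and 22H passed without replicate 5 (0.925 and 0.921). With 28S it ran from 0.497 to 0.906 for Igfbp6, 0.492 to 0.890 for Igf2, 0.466 to 0.716 for spot 16I and 0.324 to 0.623 for spot 22H. At 3 times the floor 1 member, Igfbp6, was above it, and at 1.5 times 5 pathway genes were.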
